A study of Mus musculus with 6 samples.

Results

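The genes described here are the 9 genes of the deposited table whose symbol starts with Zfp (zinc finger protein), out of 389 genes in that table. They are Zfp276, Zfp141, Zfp983, Zfp992, Zfp982, Zfp119b, Zfp968-ps, Zfp160 and Zfp383. Liver RNA was sequenced from 3 samples of whole-body Usp28 knockout mice (KO) and 3 wild-type samples (WT). Usp28 encodes a deubiquitinase. KO and WT share the feeding, which began at 8 weeks of age and lasted 4 weeks with food deficient in methionine and choline, used to induce non-alcoholic steatohepatitis, and no other diet was analysed here. The labels do not say how the knockout was made, whether each sample is 1 animal, or the sex of the mice. The authors had selected the 389 genes for a difference between KO and WT: in the authors' deposited table no log2 fold change was smaller in size than 1.004, and the largest FDR was 0.0494. The difference between KO and WT therefore chose these genes, and it is given as a description with no test.

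Zinc finger proteins of the C2H2 type bind DNA through a row of small folds, each held together by a zinc ion between 2 cysteines and 2 histidines. In mammals the largest family of them carries a KRAB domain at the N terminus, which recruits the corepressor KAP1 (gene Trim28) and with it enzymes that place repressive histone and DNA methylation. Many KRAB zinc finger proteins are known for silencing transposable elements. Their genes lie in clusters that grew by duplication and differ between mouse strains and species, so close relatives often carry near-identical sequence. Most are expressed at a low level in adult tissues.

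The label of KRAB-type and other zinc finger genes was checked on the coding sequences of GENCODE M21 (mouse build GRCm38). A KRAB-A motif was found in 8 of the 9 genes, Zfp276 being the one without it, and in no other of 383 translated genes of the table. The motif pattern was set after the translations of the 9 genes were seen, so this count describes them and is no independent check. At least 3 C2H2 finger motifs were found in 8 of the 9. Zfp160 had 18 finger motifs, Zfp992 and Zfp383 had 11, Zfp141 and Zfp983 had 10, Zfp119b had 9, Zfp982 had 7 and Zfp276 had 5. Zfp968-ps had 0 fingers: its annotated reading frame of 79 residues held the KRAB-A motif alone. Its symbol in the deposited table carries the pseudogene suffix -ps, and GENCODE M21 lists the same gene as the protein-coding Gm14435. The deposited annotation put 7 of the 9 under KEGG entry K09228, the KRAB zinc finger entry, and through it under herpes simplex infection. For these 7 genes that pathway name stands for the gene family. Other genes of the table under that pathway were not counted.

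The finger is the unit these proteins repeat. One finger of each of the 7 genes with a linker motif is shown, the last one followed by a linker in unbroken genomic sequence. It is taken from the annotated coding sequence and runs over 28 codons from the first cysteine. The 15 capitals are the codons of the conserved linker between neighbouring fingers.
Zfp141, chr7:42475058-42475141, minus strand: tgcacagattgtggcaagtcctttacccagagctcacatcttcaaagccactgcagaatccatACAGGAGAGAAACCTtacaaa
Zfp983, chr17:21662388-21662471, plus strand: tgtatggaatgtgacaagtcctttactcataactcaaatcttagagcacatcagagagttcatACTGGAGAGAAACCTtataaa
Zfp992, chr4:146467387-146467470, plus strand: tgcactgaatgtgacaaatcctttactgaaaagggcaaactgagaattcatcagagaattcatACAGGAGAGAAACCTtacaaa
Zfp982, chr4:147513085-147513168, plus strand: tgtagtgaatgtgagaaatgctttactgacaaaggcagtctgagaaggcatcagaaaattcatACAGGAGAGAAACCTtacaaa
Zfp119b, chr17:55938733-55938816, minus strand: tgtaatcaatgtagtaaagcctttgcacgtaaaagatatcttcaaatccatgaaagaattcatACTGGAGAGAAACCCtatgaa
Zfp160, chr17:21026975-21027058, plus strand: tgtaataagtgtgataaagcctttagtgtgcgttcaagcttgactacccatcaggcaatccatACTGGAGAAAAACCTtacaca
Zfp383, chr7:29915384-29915467, plus strand: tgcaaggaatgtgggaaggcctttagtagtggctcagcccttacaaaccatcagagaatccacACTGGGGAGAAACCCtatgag

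Of the 84 bases shown, Zfp992 and Zfp982 had 73 identical (86.9%), the highest of the 21 pairs, and Zfp119b and Zfp160 had 50 (59.5%), the lowest. The fingers were not matched between genes, so these shares describe the stretches shown and not the relatedness of the genes. Zfp968-ps has no finger, and its KRAB-A coding stretch is shown instead, because it occurs letter for letter in 13 other genes of the annotation, among them Zfp965, Zfp966, Zfp967, Zfp968, Zfp969, Zfp970 and Zfp973.
Zfp968-ps, chr2:176431847-176431930, plus strand: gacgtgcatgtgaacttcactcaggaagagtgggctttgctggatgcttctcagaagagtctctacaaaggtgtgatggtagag

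All 9 genes stood higher in KO than in WT, by 2.02-fold (Zfp276) to 3.26-fold (Zfp982), and in none did a KO library reach down to a WT library. Of all 389 genes of the table, 40.1% were higher in KO. In 38.6% all KO libraries lay above all WT libraries in depth-scaled reads (38.3% in FPKM), and in 55.8% they lay below. Because the table was selected on this contrast, nothing is read from these counts. The median log2 fold change of the 9 genes was 1.40, against -1.10 over all 389 genes and 1.31 over the 156 genes that were higher in KO. Together the 9 genes took 41.2 ± 1.74 RPM (depth-scaled reads, by the recovered depth) in KO and 18.0 ± 5.41 in WT (mean ± SD, n = 3 each). Without Zfp276, the most abundant, the sums were 24.1 ± 2.56 in KO and 9.52 ± 2.70 in WT. In bulk liver, a change in RNA per cell and a change in the number of cells that carry the transcript cannot be told apart.

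Depth, recovered from counts and FPKM, was 20860000, 22130000 and 21820000 reads in KO replicates 1, 2 and 3, and 20370000, 24160000 and 20350000 reads in WT replicates 1, 2 and 3. Neither Usp28 nor a KRAB corepressor was among the listed genes: 0 of the 28 corepressor genes looked for (Trim28, Setdb1, the HP1 genes, DNA methyltransferases and others) had a row. The knockout itself could therefore not be checked here from the level of Usp28. Of 10 hepatocyte markers, 5 had a row (Cyp7a1, Cyp2c70, Pklr, Abcb11 and Slco1a4), of which 4 were higher in KO and 1 lower. These summed to 678, 737 and 715 FPKM in KO, against 262.5, 316 and 408 FPKM in WT. Alb, Apoa1, Ttr, Cps1 and Cyp2e1 had no row. Of 10 markers of recruited macrophages, 6 had a row and summed to 28.9, 23.5 and 20.7 FPKM in KO, against 67.1, 30.8 and 168 FPKM in WT. Timp1 (1 of 7 stellate cell and fibroblast markers) and Lcn2 (1 of 4 neutrophil markers) were likewise lower in KO, and none of the Kupffer cell, cholangiocyte, endothelial or lymphocyte markers looked for had a row. A marker has a row only if it passed the selection on KO against WT, so these sums do not measure the share of a cell type. The part of cell makeup in the Zfp values was not tested.

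**Figure D1:**
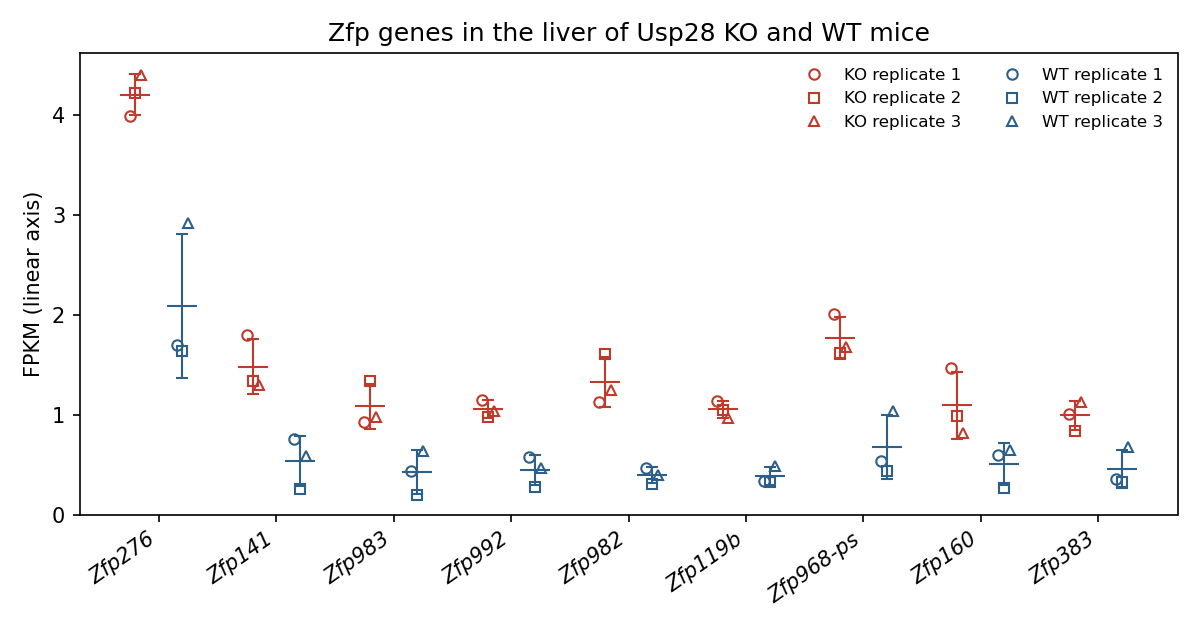
FPKM (fragments per length of transcript and size of library) of each Zfp gene in the 3 KO libraries (red, left) and the 3 WT libraries (blue, right). Bars are mean ± SD, and in each gene the lowest KO library lies above the highest WT library, by as little as 0.16 FPKM for Zfp383.

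Zfp276 (ENSMUSG00000001065, chromosome 8, 123254195 to 123269745) is the member without KRAB. Its protein has a zinc-binding N-terminal domain of the ZAD type, known best from insects. It was counted in 339, 380 and 391 reads in KO replicates 1, 2 and 3, against 141, 161 and 242 reads in WT replicates 1, 2 and 3. Its FPKM were 3.99, 4.22 and 4.40 in KO, against 1.70, 1.64 and 2.92 in WT. WT replicate 3 lay nearest to the KO libraries, and the KO libraries lay close together. The log2 fold change of KO over WT was 1.01 ± 0.32 (SE). Of the 9 genes Zfp276 is the nearest to the selection threshold, with a log2 fold change of 1.01 in the authors' deposited table. It runs into its neighbour Fanca, a DNA repair gene on the opposite strand: 920 bases, or 22.6% of its longest coding transcript, are also Fanca exon, and 154 bases are also exon of Vps9d1 on that strand. Whether the counting used strand is not given in the sources used here, so reads there cannot be assigned to Zfp276 alone. Neither Fanca nor Vps9d1 had a row. Mvd, an enzyme gene of the mevalonate pathway 811 kb away, was listed with a log2 fold change of 1.52 ± 0.60 (SE).

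Zfp982 and Zfp992 belong to the large zinc finger cluster near the end of chromosome 4, where they lie 1.02 Mb apart. Zfp982 (ENSMUSG00000078496, chromosome 4, 147492417 to 147513486) had the largest fold change of the 9 genes and the fewest reads. It was counted in 30, 45 and 34 reads in KO replicates 1, 2 and 3, against 12, 11 and 10 reads in WT replicates 1, 2 and 3. The 3 WT libraries were alike, and WT replicate 3 was not nearer to KO than the others. Over each group the sum was 109 reads in KO (exact Poisson 95% interval 89.5 to 131) and 33 in WT (22.7 to 46.3), intervals that cover counting error only. The FPKM were 1.13, 1.61 and 1.25 in KO and 0.47, 0.31 and 0.40 in WT, and the log2 fold change was 1.70 ± 0.50 (SE).

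Zfp992 (ENSMUSG00000070605, chromosome 4, 146449023 to 146470292) was counted in 109, 99 and 103 reads in KO replicates 1, 2 and 3, against 53, 31 and 44 reads in WT. Its FPKM were 1.15, 0.98 and 1.04 in KO and 0.58, 0.28 and 0.47 in WT, so the KO libraries differed little and WT replicate 2 was the lowest. The log2 fold change was 1.25 ± 0.39 (SE). Of the 100-base windows of its transcript, 24.8% occur in Zfp991 and 23.5% in the pseudogene Znf41-ps of the same cluster. At 50 bases these shares were 38.3% and 37.0%. Between the 9 genes, Zfp992 and Zfp982 were the 1 pair that shared any 50-base window, and none shared a 100-base window.

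On chromosome 17, Zfp160 and Zfp983 lie 0.608 Mb apart, and Zfp119b lies 34.3 Mb or more from both. Zfp983 (ENSMUSG00000035868, chromosome 17, 21650624 to 21664966) was counted in 67, 81 and 58 reads in KO replicates 1, 2 and 3, against 23, 21 and 33 reads in WT. Its FPKM were 0.93, 1.34 and 0.98 in KO and 0.44, 0.20 and 0.64 in WT. KO replicate 2 and WT replicate 3 were the highest of their groups, and the log2 fold change was 1.40 ± 0.43 (SE). Of its longest coding transcript, 233 bases (5.35%) are also exon of CAAA01141682.1, a transcribed processed pseudogene on the same strand without a row. Reads there cannot be assigned to Zfp983 alone by position or strand.

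Zfp160 (ENSMUSG00000067942, chromosome 17, 21008903 to 21043070), with the most finger motifs, was counted in 93, 60 and 58 reads in KO replicates 1, 2 and 3, against 34, 24 and 35 reads in WT. Its FPKM were 1.47, 0.99 and 0.82 in KO and 0.60, 0.27 and 0.65 in WT. KO replicate 1 stood above the other KO libraries, and its log2 fold change of 1.17 ± 0.44 (SE) was 0.88 without that library. The gap between the lowest KO and the highest WT library was 0.17 FPKM.

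Zfp119b (ENSMUSG00000062101, chromosome 17, 55938381 to 55949500) was counted in 45, 44 and 40 reads in KO replicates 1, 2 and 3, against 13, 15 and 19 reads in WT. Its FPKM were 1.14, 1.05 and 0.97 in KO and 0.34, 0.33 and 0.49 in WT. The KO libraries were close to each other, WT replicate 3 stood above the other WT libraries, and the log2 fold change was 1.44 ± 0.47 (SE). Lrg1, which encodes a secreted acute phase glycoprotein, lies 170 kb away and moved the other way, with a log2 fold change of -1.01 ± 0.35 (SE).

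On chromosome 7, Zfp141 and Zfp383 lie 12.6 Mb apart. Zfp141 (ENSMUSG00000092416, chromosome 7, 42473386 to 42505740) was counted in 118, 105 and 82 reads in KO replicates 1, 2 and 3, against 36, 26 and 49 reads in WT. Its FPKM were 1.80, 1.34 and 1.3 in KO and 0.76, 0.26 and 0.59 in WT, a log2 fold change of 1.43 ± 0.42 (SE). The order of the WT libraries differs between the measures: WT replicate 3 had the most reads and WT replicate 1 the highest FPKM.

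Zfp383 (ENSMUSG00000099689, chromosome 7, 29908223 to 29916813), with a GO term for transcriptional repressor activity in the deposited table, was counted in 55, 49 and 65 reads in KO replicates 1, 2 and 3, against 19, 21 and 36 reads in WT. Its FPKM were 1.01, 0.84 and 1.13 in KO and 0.36, 0.33 and 0.68 in WT. WT replicate 3 lay nearest to KO, and the log2 fold change of 1.13 ± 0.46 (SE) was 1.53 without it. Its FDR in the authors' deposited table, 0.0439, was the largest of the 9 genes.

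Zfp968-ps (ENSMUSG00000089951, chromosome 2, 176423594 to 176435761) was counted in 44, 38 and 37 reads in KO replicates 1, 2 and 3, against 11, 12 and 19 reads in WT. Its FPKM were 2.01, 1.62 and 1.68 in KO and 0.54, 0.44 and 1.04 in WT, a log2 fold change of 1.48 ± 0.50 (SE). Every 50, 100 and 150-base window of its longest coding transcript also occurs in Gm14288 and in Gm14440, genes of the same chromosome 2 cluster without a row. Gm14327 holds 39.9% and Zfp968 34.1% of its 100-base windows. Reads of that transcript therefore cannot be assigned to this locus by sequence, and the values of Zfp968-ps may include reads of these genes. Windows of its other annotated transcripts were not compared.

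**Figure D2:**
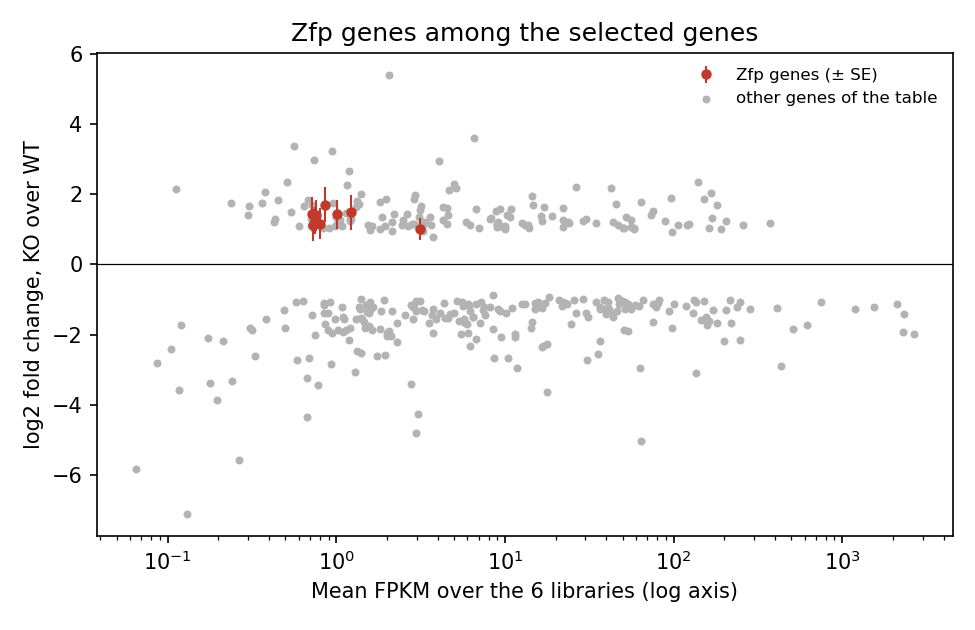
Log2 fold change of KO over WT against mean FPKM over the 6 libraries (log axis) for the 9 Zfp genes (red, with SE) and the other 380 genes of the table (grey). The Zfp genes lie between 1.01 and 1.70, at mean levels of 0.72 to 3.15 FPKM.

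The 9 genes were at the low end of the table. Their mean FPKM over the 6 libraries had a median of 0.80, against 4.55 in the other genes that were higher in KO and 6.09 in all other listed genes. Zfp276 had the highest mean, 3.15 FPKM. At this level each WT library rests on 10 to 53 reads for the 8 KRAB genes, and the SE of their log2 fold changes was 0.39 to 0.50.

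In WT, the same libraries stood at the ends of the range in most of the 9 genes. WT replicate 2 was the lowest of the 3 WT libraries in depth-scaled reads in 9 of 9 genes, and in 86 of the other 147 genes that were higher in KO (58.5%). WT replicate 3 was the highest in 7 of 9, and in 112 of 146 of the other genes with no count of 0 (76.7%). On a scale with 0 at the mean of WT replicates 1 and 2 and 1 at the KO mean (log2 of depth-scaled reads), WT replicate 3 lay at a median of 0.43 for the 9 genes, against 0.45 for those 146. The intermediate place of WT replicate 3 was thus as common outside the Zfp genes as among them. It is also the library with the highest macrophage marker sum, and the part of that in the Zfp values was not tested.

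**Figure D3:**
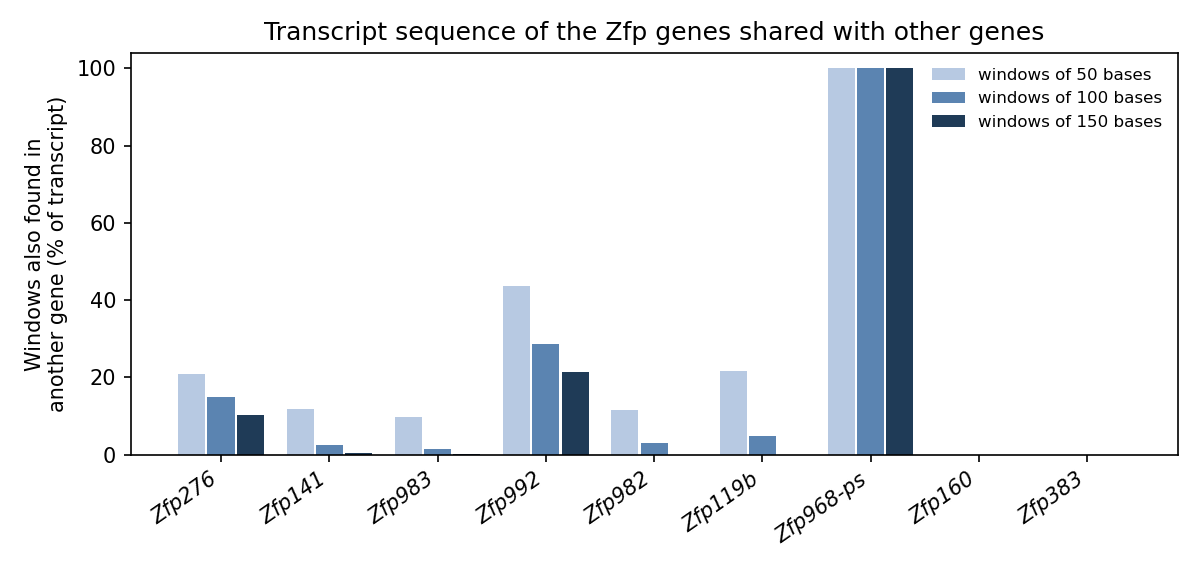
Share of the windows of 50, 100 or 150 bases in each gene's longest coding transcript that also occur in a transcript of another gene, on either strand, in GENCODE M21. Zfp968-ps stands at 100% at each length, Zfp992 at 28.6% for 100 bases, and Zfp160 and Zfp383 at 0.

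How far the counts could include reads of relatives was described from the transcript sequences, since the treatment of reads that match several genes is not given in the sources used here. With windows of 100 bases on either strand, over 10% of the transcript was shared with another gene in 3 of the 9 genes (Zfp968-ps 100%, Zfp992 28.6% and Zfp276 14.9%), against 13.7% of the other 379 listed genes with a transcript. The sharing of Zfp276 was all on the opposite strand. Of the other 6 genes, Zfp119b shared 4.75% (with Zfp119a and Zfp959) and Zfp982 2.95% (with Gm13147 and Gm21411). Zfp141 shared 2.37% (with 2610021A01Rik), Zfp983 1.57% (with CAAA01141682.1 and Gm10226), and Zfp160 and Zfp383 shared 0. Windows of 50 bases raised Zfp119b to 21.6%, Zfp141 to 11.9%, Zfp982 to 11.5% and Zfp983 to 9.83%, and left Zfp160 and Zfp383 at 0. Those last 2 genes had log2 fold changes of 1.17 ± 0.44 and 1.13 ± 0.46 (SE). All listed genes were selected on that contrast, so nothing about shared reads is read from these values. The windows cover only the longest coding transcript of each gene, and Zfp383 has a longer annotated transcript of 3208 bases. The part of shared reads in the Zfp values was not tested.

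**Figure D4:**
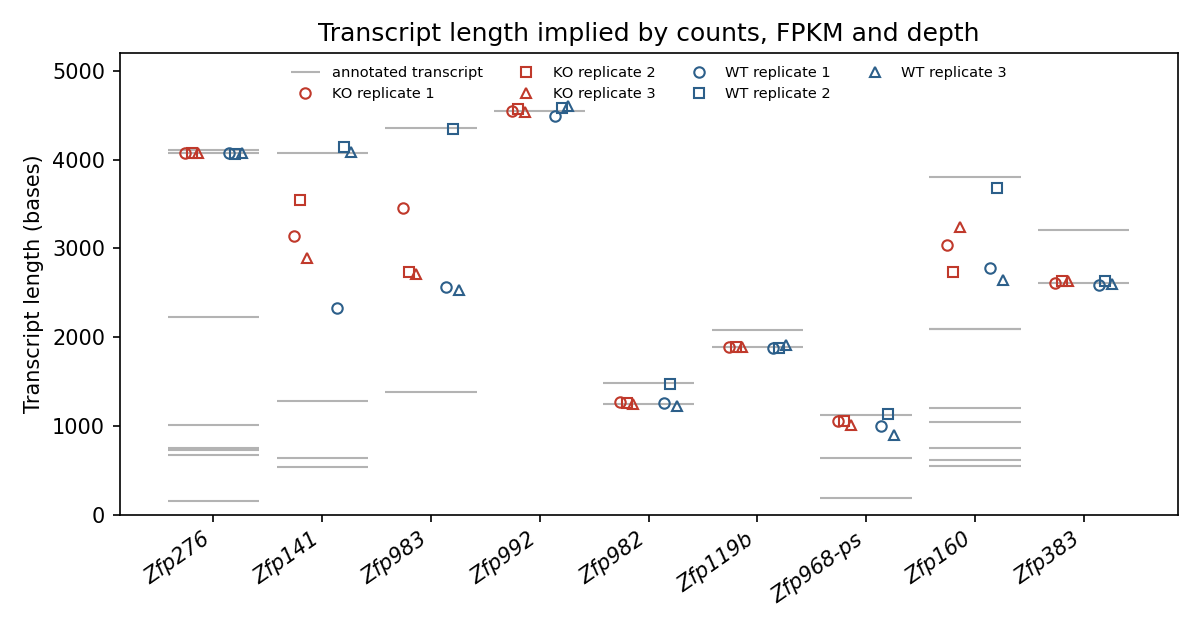
Transcript length in bases implied by count, FPKM and recovered depth for each Zfp gene in the 3 KO libraries (red, left) and the 3 WT libraries (blue, right), with annotated transcript lengths as grey lines. In Zfp141, Zfp983, Zfp982, Zfp968-ps and Zfp160 the lengths differ between libraries, with WT replicate 2 the longest in each.

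FPKM divides reads by a transcript length, and the length in use can be read back from count, FPKM and depth. For Zfp276 it was 4072 ± 2.18 bases in KO and 4069 ± 5.09 in WT (SD, n = 3 each), which is its annotated coding transcript of 4071 bases. In Zfp992, Zfp119b and Zfp383 the longest value was also within 1.03 times the shortest. In the other 5 genes the length moved between libraries. For Zfp141 it was 3143, 3541 and 2891 bases in KO replicates 1, 2 and 3, against 2325, 4139 and 4081 bases in WT replicates 1, 2 and 3. For Zfp983 it was 3454, 2731 and 2712 bases in KO, against 2566, 4346 and 2534 in WT. WT replicate 2 had the longest value in all 5, at or near the longest annotated transcript (4069, 4354, 1488, 1127 and 3800 bases for Zfp141, Zfp983, Zfp982, Zfp968-ps and Zfp160). Among the other 130 listed genes whose length moved by over 5%, WT replicate 2 was the longest in 12.3%. A longer length lowers FPKM and leaves counts as they are. WT replicate 2 had the lowest WT FPKM in these 5 genes, and also in Zfp276, Zfp992, Zfp119b and Zfp383, where the length hardly moved. In depth-scaled reads, which use no length, it was the lowest WT library in all 9 genes. The part of length in the FPKM of WT replicate 2 was not tested. The mean length in KO was 0.908 of that in WT for Zfp141 and 1.03 of it for Zfp968-ps, the extremes of the 9 genes.

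Gm10033 was the remaining listed gene under K09228, a transcribed pseudogene in GENCODE M21 that shares 17 windows of 50 bases with Zfp119b. It was named after its values were seen. It was counted in 128, 126 and 71 reads in KO replicates 1, 2 and 3, against 47, 28 and 54 in WT, a log2 fold change of 1.303 ± 0.441 (SE). Its FPKM, 0.79, 2.02 and 2.09 in KO and 0.46, 0.39 and 1.52 in WT, overlapped between the groups, although its depth-scaled reads did not.

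Other zinc finger genes of the table did not share 1 direction. The table was searched for symbols of other C2H2 families and for coding sequences with at least 3 finger motifs. Outside the Zfp symbols this found 1 gene, Casz1, a C2H2 transcription factor without KRAB. It was counted in 8, 20 and 7 reads in KO and 38, 40 and 45 reads in WT, a log2 fold change of -1.82 ± 0.56 (SE). Of the 5 genes with zinc finger in their description outside the Zfp symbols, also named after their values were seen, 3 were higher in KO and 2 lower. Zfand4 (AN1 type), Zmat1 (matrin type) and Zc3h8 (CCCH type) had log2 fold changes of 1.16 ± 0.29, 1.68 ± 0.50 and 1.36 ± 0.55. Zbed5, of the BED type, had one of -1.93 ± 0.44 (SE), and Casz1 is the other.

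The listed gene with the most similar pattern was found for each of the 9 by the root mean square distance over the 6 libraries, in log2(FPKM + 0.1) centred on each gene's mean. Zfp276 and Zfp383 were each other's nearest gene (0.11). For Zfp119b it was S1pr1 (0.06), which encodes a sphingosine-1-phosphate receptor and stood at 12.9, 12.1 and 9.91 FPKM in KO and 4.30, 4.24 and 5.55 FPKM in WT. For Zfp992 it was Mis12 (0.11), a kinetochore gene at 4.31, 4.05 and 4.88 FPKM in KO and 2.60, 1.42 and 2.44 FPKM in WT. For Zfp982 it was Adamts7 (0.16), for Zfp983 Svil (0.16), for Zfp968-ps Nudt16l1 (0.14), for Zfp160 Klhdc7a (0.16) and for Zfp141 Ccdc162 (0.19). The pattern includes the difference between KO and WT on which all these genes were selected.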

How the data were processed

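The authors deposited whole-number read counts and FPKM per gene and sample for 389 selected genes, with mean FPKM per group, a log2 fold change, a p-value and an FDR, per the file headers. The submitters' processing notes name fastp 0.18.0, HISAT2, StringTie 1.3.1 and RSEM. What each tool did, the genome build, strand use and the authors' test are not given in these sources. Per the labels' protocols, a NEBNext Ultra kit was used on Trizol-extracted RNA. Separate animals are not stated in the labels, so SD and SE cover only the spread of these samples, which may be technical.

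DESeq2 1.42.0 was an alternative. Depth was recovered as the median of count over FPKM and transcript length in single-transcript genes with at least 50 counts and 1 FPKM. edgeR 4.0.16 in R 4.3.3 was fitted to the counts of all 389 genes (quasi-likelihood, recovered depth, no filter). It gave log2 fold changes and SE (fold change over the square root of F). No p-value is given, because the table was selected on this contrast. The fit was tested on simulated data. A replicate-number block was an alternative. Positions and transcripts are from GENCODE M21 (GRCm38), which held 388 of the 389 IDs. C2H2 motifs (2 to 4 residues between cysteines, then 12, then 3 to 5 between histidines) and KRAB-A motifs were searched in translated coding sequences. The planned RefSeq proteins were not used here, and the KRAB pattern was set after the translations were seen. Genes were named by rule: all 9, their overlapping, paralogous (up to 2) or listed neighbouring genes within 1 Mb, the nearest pattern, and fixed lists. For Zfp968-ps more paralogs than the rule allows are named. Members and lists were chosen with earlier results of these data known.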

Additional observations from a re-analysis of the deposited data

How the results depend on the processing

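All 9 genes stayed higher in KO under every alternative run, and in all 9 the KO libraries lay above the WT libraries both in depth-scaled reads and in deposited FPKM. Leaving out a library cannot make groups overlap that did not, so that count stays at 9 by construction. Their median log2 fold change, 1.40, was 1.999 with TMM factors over the listed genes, 2.04 with DESeq2's size factors and fit, and 0.57 on the log2(FPKM + 1) scale. The first 2 scalings moved single genes by a median of 0.60 and 0.65 over all listed genes, and of 0.61 and 0.65 over the 9 genes. They assume that most genes of a selected table are unchanged. The median log2 fold change of the 9 genes was 1.25 with a pseudocount of 0.1, and between 1.17 and 1.65 when 1 library was left out. With the replicate number as a replicate block it was 1.42. Deviations from the group means correlated at 0.05, 0.02 and -0.06 between KO and WT libraries of numbers 1, 2 and 3. Between libraries of unlike number the values ran from -0.13 (KO replicate 1 with WT replicate 2) to 0.11 (KO replicate 3 with WT replicate 2). Whether the numbers pair the samples cannot be told from such small values in selected genes. With windows of 50 bases, 6 genes instead of 3 shared over 10% of their transcript, against 18.5% of the other listed genes. With 150 bases 3 did, against 10.8%, and on the sense strand alone (100 bases) 2 did, against 6.86%. Depth limits single values most in Zfp982, with 10 to 12 reads in each WT library.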
